A study of Mus musculus with 24 samples.

Results

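The 9 genes described here encode neuropeptides of the spinal dorsal horn: Grp, Penk, Pdyn, Nts, Tac1, Tac2, Npy, Sst and Cck. They were taken by symbol, and all 9 were among the 55418 genes of the count table and passed the filter on low counts. RNA was sequenced from the L4-L6 spinal cord of 24 C57BL/6J mice that were 8-10 weeks old when the experiment began, with 3 mice in each of 8 groups. The knockout mice (KO) lack Chrna7, a nicotinic acetylcholine receptor gene, in myeloid cells, and the labels call them myeloid-specific Chrna7 knockout; no label names the Cre line. The wild-type mice (WT) are of the same strain. Mice of both genotypes and both sexes received paclitaxel (1 mg/kg in 4 injections, every other day) or the vehicle of Kolliphor, ethanol and water, and RNA came from day 7, counted from the first dose. The groups were thus KO paclitaxel, KO vehicle, WT paclitaxel and WT vehicle, each with 3 males and 3 females. The design asks what the drug and the myeloid deletion do to the cord and whether each depends on the other or on sex.

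Neuropeptides are cut from longer precursors, stored in dense core vesicles and released during strong firing to act on G protein-coupled receptors, often at a distance from the synapse. In the dorsal horn, where pain, itch and touch fibres end, each peptide marks groups of interneurons. GRP is released by excitatory interneurons that carry itch, and its lumbar neurons in the rat include a larger group in males than in females that drives ejaculation. Enkephalin from Penk and dynorphin from Pdyn are opioids that damp transmission. Substance P from Tac1 and neurokinin B from Tac2 excite, somatostatin from Sst and neuropeptide Y from Npy inhibit their target cells, and neurotensin from Nts and cholecystokinin from Cck mark excitatory interneurons.

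In the exons used for counting (GRCm38), Penk spans chr4:4133531-4138819 (minus strand), Pdyn chr2:129686565-129699844 (minus), Nts chr10:102481756-102490486 (minus), Tac1 chr6:7554879-7565834 (plus), Tac2 chr10:127724478-127731768 (plus), Npy chr6:49822710-49829507 (plus), Sst chr16:23889573-23890958 (minus) and Cck chr9:121489824-121495694 (minus). Penk shares 14.3% of its 1634 exon bases with A830012C17Rik on the opposite strand, which had 3 to 26 counts per cord (mean 0.138 CPM). Counting used no strand option, so reads of these genes cannot be told apart in that stretch. The exons of the other 8 genes overlapped no other gene.

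RefSeq promoters (GRCm38.p6) were given for 7 of the 9 genes. The 250 bases before the start are shown for Nts, the gene that was lower in males, and for Sst, the most abundant of the 9 per length. They are also shown for Pdyn (the upstream one of its starts) and Tac2, the pair that passed the correlation test in both sexes below. Capitals mark TGACGTCA, the cAMP response element, and TGANTCA, the AP-1 element, the motifs found. Both read the same on either strand.
Nts, chr10:102490419-102490668, minus strand: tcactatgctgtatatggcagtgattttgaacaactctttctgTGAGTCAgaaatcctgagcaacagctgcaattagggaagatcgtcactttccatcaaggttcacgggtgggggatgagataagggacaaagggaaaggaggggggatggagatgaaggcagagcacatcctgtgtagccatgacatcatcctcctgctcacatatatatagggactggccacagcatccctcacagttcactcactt
Sst, chr16:23890845-23891094, minus strand: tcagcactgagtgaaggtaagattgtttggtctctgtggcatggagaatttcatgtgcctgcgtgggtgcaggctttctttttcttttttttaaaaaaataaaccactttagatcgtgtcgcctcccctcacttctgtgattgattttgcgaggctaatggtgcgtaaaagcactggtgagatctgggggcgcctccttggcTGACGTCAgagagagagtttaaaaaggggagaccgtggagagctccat
Pdyn, chr2:129699939-129700188, minus strand: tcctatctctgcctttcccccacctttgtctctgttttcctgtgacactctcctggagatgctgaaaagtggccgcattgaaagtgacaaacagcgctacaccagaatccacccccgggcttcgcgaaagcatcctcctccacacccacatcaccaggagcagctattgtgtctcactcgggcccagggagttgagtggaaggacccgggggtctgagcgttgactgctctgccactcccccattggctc
Tac2, chr10:127724228-127724477, plus strand: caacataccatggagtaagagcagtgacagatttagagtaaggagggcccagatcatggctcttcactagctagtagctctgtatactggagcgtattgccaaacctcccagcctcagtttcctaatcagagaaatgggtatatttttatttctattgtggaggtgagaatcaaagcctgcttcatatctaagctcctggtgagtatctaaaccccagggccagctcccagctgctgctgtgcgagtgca
The cAMP element of Sst begins at position -48 from the start, and 1.79% of the 32851 promoters of the table held one in the 250 bases before and 50 after the start. The AP-1 element of Nts begins at position -207, and 7.81% of promoters held one. The short hormone receptor motifs AGAACA and AGGTCA, searched on both strands for the sex difference described below, stood in none of the 8 promoter windows of the 7 genes. Of all promoters, 6233 and 5340 held them (16.3% for AGGTCA). No promoter was given for Grp and Penk, the members higher in males, so they were not searched. Nts was the only member called between the sexes that was searched. No overlap between motifs occurred in these windows. A match is a string of letters and not a bound site.

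Libraries held 88812295 to 112158154 counts (median 94343662). The library of WT female paclitaxel replicate 3 had the profile of a sensory ganglion: all 13 genes of the ganglion list lay above every cord, and Scn10a, a sodium channel of nociceptors, stood at 772 CPM (library-scaled counts, without edgeR's TMM factors) against at most 0.728 CPM in the other 23. It was set apart, and results below rest on the other 23 libraries, called cords (KO paclitaxel 6, KO vehicle 6, WT paclitaxel 5, WT vehicle 6). Chrna7 itself, which neurons also transcribe, averaged 12.6 ± 1.61 CPM in KO cords and 13.6 ± 1.79 CPM in WT cords (SD, n = 12 and 11, edgeR adjusted p = 0.9997), and whole cord cannot separate the myeloid transcript from that of neurons. Lyz2, a myeloid gene, stood at 18.99 ± 4.71 CPM in KO cords and 39.5 ± 9.70 CPM in WT cords (log2 fold change -1.06, SE 0.13, edgeR adjusted p = 0.00752). The labels name each library by a number: libraries 1 to 12 hold all males given paclitaxel and all females given vehicle, and libraries 13 to 24 hold all males given vehicle and all females given paclitaxel.

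Somatostatin and enkephalin transcripts made up most of the summed level of the 9 genes, which leaves out other neuropeptides of the cord. Per kilobase of exon, Sst averaged 77.4 ± 10.98 CPM per kb and Penk 66.5 ± 12.9 CPM per kb (SD over 23 cords), and they held 34.8% and 29.9% of the sum of the 9 genes. Sst lay above Penk in 18 of 23 cords, and Penk lay above the third gene in all 23. Tac2 (17.8 ± 3.69), Npy (16.8 ± 2.67) and Nts (15.2 ± 1.79 CPM per kb) followed at levels that did not differ beyond their spread, with Tac2 above Npy in 13 cords and Npy above Nts in 14. Cck stood at 11.6 ± 3.49 CPM per kb, above Tac1 in all 23 cords. Tac1 stood at 7.77 ± 0.82 CPM per kb, above Pdyn in all 23. Pdyn (5.16 ± 1.01) and Grp (4.23 ± 1.23 CPM per kb) were lowest, and Pdyn exceeded Grp in 16 cords.

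Across the 4 combinations of genotype and treatment, no member's neighbouring means differed by more than the larger SD of the pair. The highest mean exceeded the lowest by 1.08 times for Nts to 1.36 times for Cck. Penk, for example, averaged 115 ± 28.1 CPM in KO paclitaxel, 97.5 ± 14.3 in KO vehicle, 114 ± 27.7 in WT paclitaxel and 109 ± 10.8 in WT vehicle. Grp averaged 5.77 ± 2.28, 6.10 ± 1.72, 7.03 ± 1.93 and 6.21 ± 1.604 CPM in the same groups (SD, n = 6, 6, 5 and 6). Each of these groups joins males and females.

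**Figure D1:**
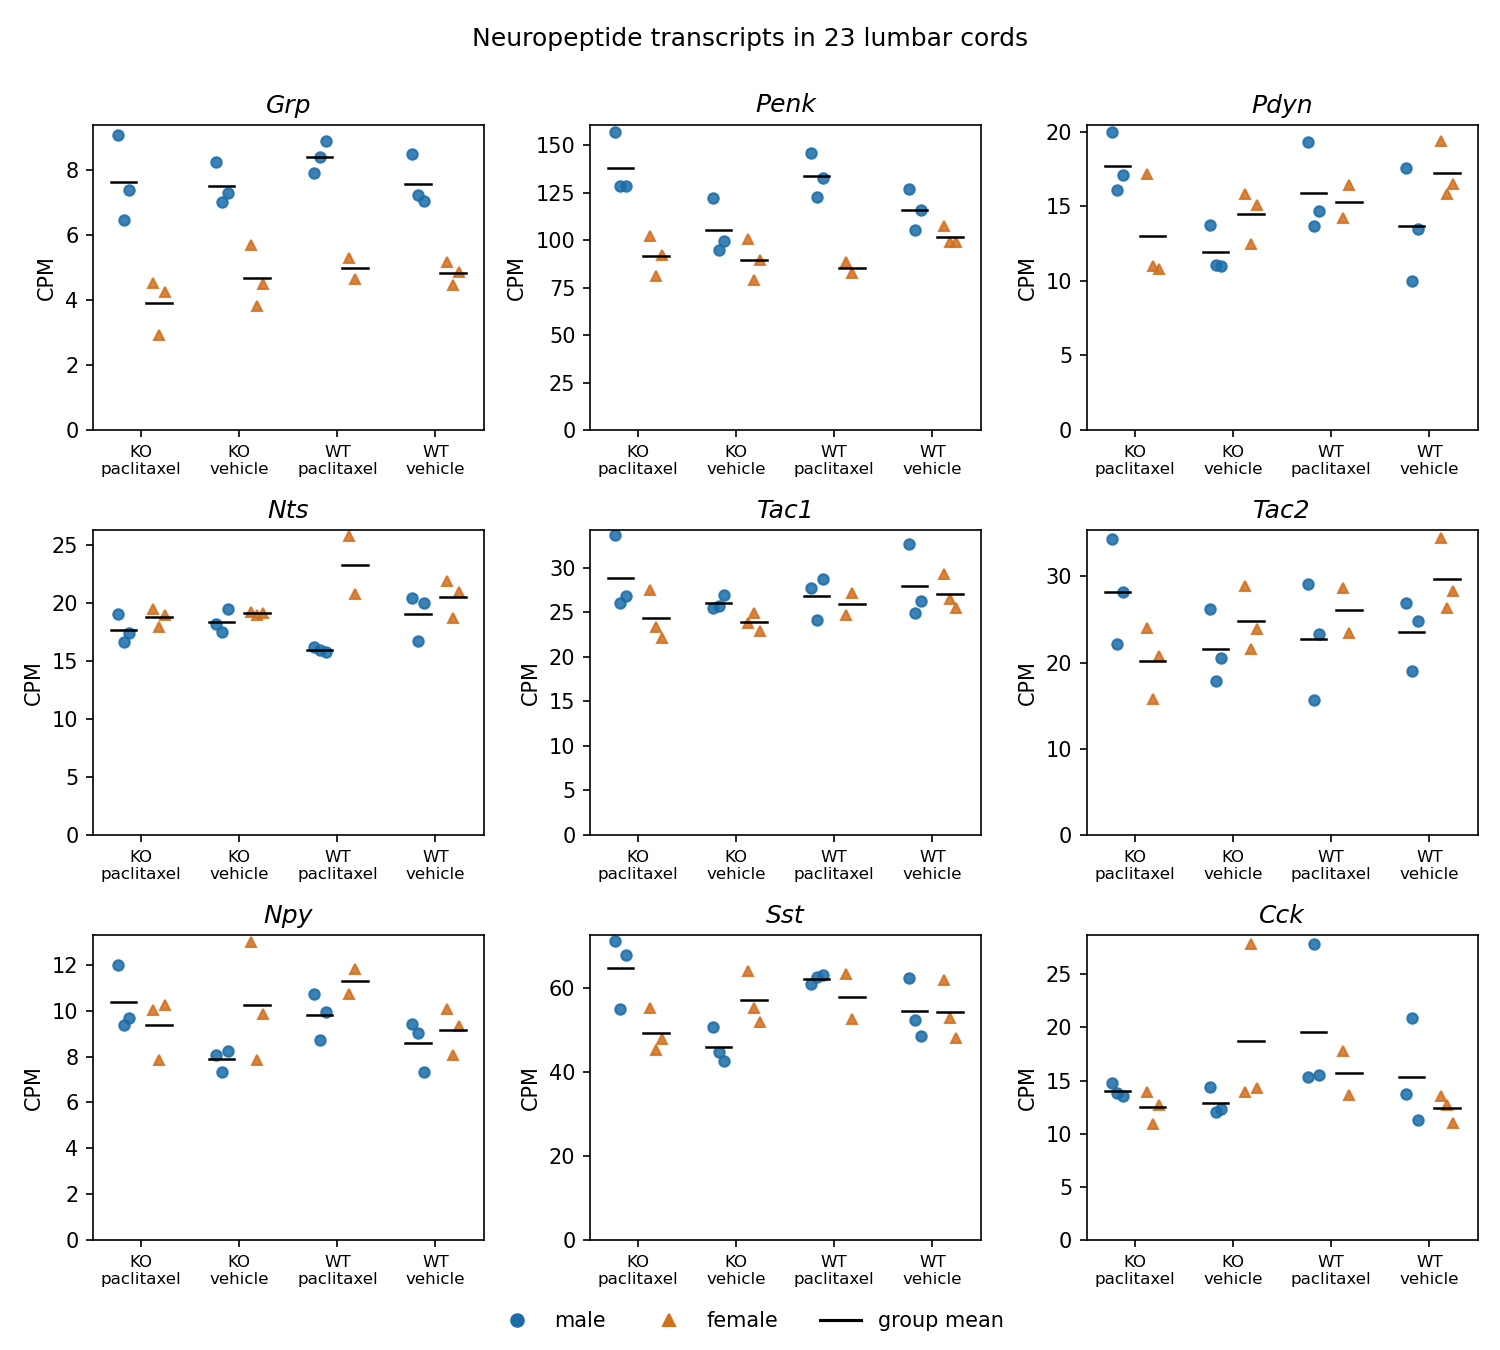
Level of each neuropeptide transcript (CPM with TMM factors, linear axis from 0) in each of 23 cords by genotype and treatment. Circles are males, triangles females and black lines the means of the 3 cords of a group (2 in WT females given paclitaxel). In the panel of Grp all males (6.46 to 9.08 CPM) lie above all females (2.94 to 5.70 CPM), and in that of Cck 3 cords stand above the rest.

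Sex was the factor in which members changed: Grp and Penk were higher and Nts was lower in males. These were 3 of 9 members called (adjusted p under 0.05) where 0.918% of all 25372 tested genes were called. Males had 6.46 to 9.08 CPM of Grp (lowest to highest of 12, median 7.64), against 2.94 to 5.70 CPM in females (n = 11, median 4.52). No male overlapped any female. Grp, the itch peptide, averaged 7.79 ± 0.83 CPM in males and 4.56 ± 0.75 CPM in females, or 0.77 higher on the log2 scale (SE 0.08, adjusted p = 1.66e-07 by edgeR). Of the 24588 tested genes outside the sex chromosomes, 199 were called between the sexes, and Grp had the smallest p.

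Penk, the enkephalin precursor, ranged over 94.5 to 157 CPM in males (median 125), against 79.003 to 107 CPM in females (median 92.1). The sexes overlapped. The means were 123 ± 17.9 CPM in males and 92.8 ± 9.46 CPM in females (log2 fold change 0.41, SE 0.06, edgeR adjusted p = 0.00158), or 1.33 times, and Penk ranked 23 outside the sex chromosomes. Nts, the neurotensin precursor, ranged over 15.8 to 20.4 CPM in males (median 17.5), against 18.0 to 25.8 CPM in females (median 19.3). It averaged 17.8 ± 1.63 CPM in males and 20.2 ± 2.19 CPM in females (log2 fold change -0.20, SE 0.04, edgeR adjusted p = 0.0158) and ranked 60. The call of Nts rests on 1 library: without WT female paclitaxel replicate 1, the highest cord, the log2 fold change was -0.16 and the adjusted p 0.129. Refits over all 24 libraries called none of the 3 (adjusted p of Grp 0.394), with a log2 fold change of 0.91 for Grp, 0.54 for Penk and -0.14 for Nts.

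The Grp difference stood in each genotype and treatment. Its log2 fold change between males and females was 0.97 (SE 0.15) in KO paclitaxel, 0.69 (SE 0.15) in KO vehicle, 0.76 (SE 0.17) in WT paclitaxel and 0.65 (SE 0.15) in WT vehicle. That of Penk was 0.59 (SE 0.12) in KO paclitaxel and 0.64 (SE 0.13) in WT paclitaxel, against 0.23 and 0.19 (SE 0.12 each) in KO and WT vehicle. The Nts difference was -0.54 (SE 0.09) in WT paclitaxel and between -0.11 and -0.05 in the other 3 strata. Fitted on paclitaxel cords alone, a choice made after seeing the data, all 3 were called, with log2 fold changes of 0.86 for Grp, 0.61 for Penk and -0.32 for Nts (edgeR adjusted p = 0.00101, 0.00128 and 0.0115). Fitted on vehicle cords alone, Grp was called (log2 fold change 0.66, edgeR adjusted p = 9.81e-04) and Penk (0.21, adjusted p = 0.286) and Nts (-0.09, adjusted p = 0.520) were not. The share of all genes called in either of these fits is not given here, so their counts of members called are not compared. Whether the sex difference of Penk and Nts depends on treatment was tested as an interaction, given below; neither passed, and both passed with replicate number as a block.

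**Figure D2:**
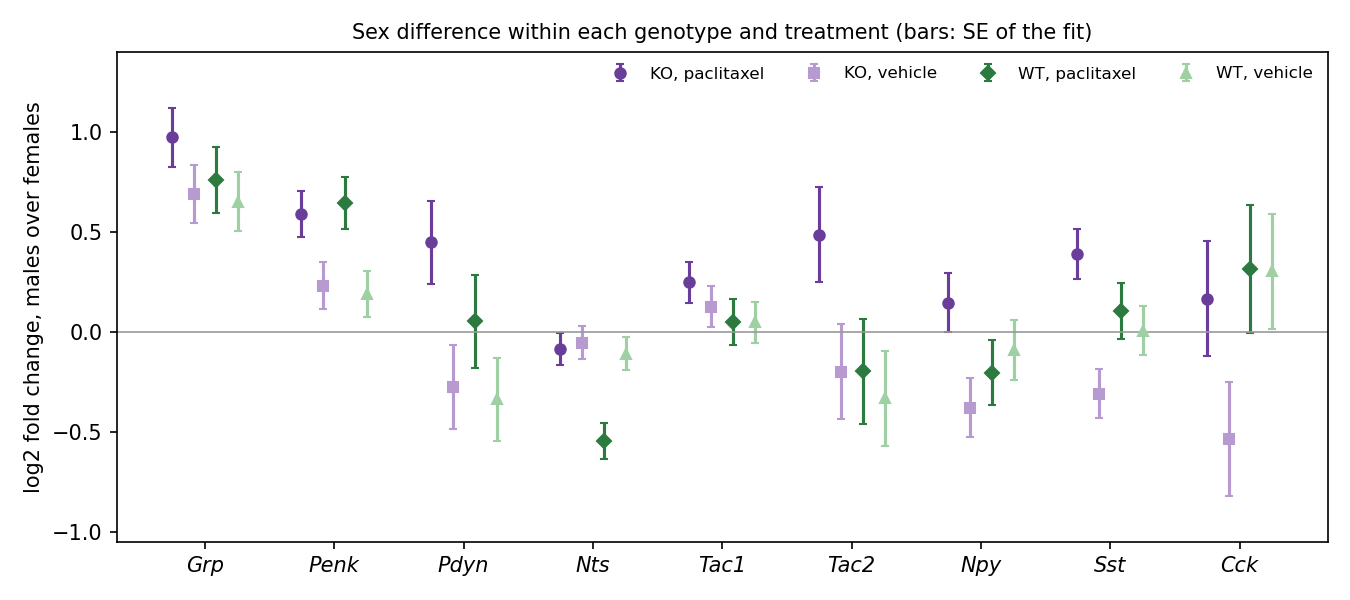
Log2 fold change of males over females for each member within each genotype and treatment, with bars of 1 SE of the edgeR fit (3 males and 3 females a stratum, 2 females in WT paclitaxel). Grp lies between 0.65 and 0.97 in all 4 strata, and Penk is at 0.59 and 0.64 under paclitaxel and at 0.23 and 0.19 under vehicle.

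The other 6 members were not called between the sexes. Tac1, the substance P precursor, had 27.4 ± 2.95 CPM in males and 25.3 ± 2.19 CPM in females (log2 fold change 0.12, 95% interval 0.0067 to 0.23, edgeR adjusted p = 0.345). Npy had 9.16 ± 1.37 CPM in males and 9.90 ± 1.63 CPM in females (-0.13, interval -0.29 to 0.025, adjusted p = 0.480). For Pdyn, Tac2, Sst and Cck the log2 fold change lay between -0.062 and 0.062. Their intervals together reached from -0.32 to 0.38, and a sex difference within a gene's own interval could not be told from none. Precision differed between these genes: within strata of genotype and treatment the SE was 0.12 to 0.14 for Sst and 0.29 to 0.32 for Cck.

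Receptors and fellow peptides were surveyed with the same fit. Of the 20 receptor genes of these peptides, Npy2r, the Y2 receptor of neuropeptide Y, was called lower in males and none was called higher. It averaged 5.10 ± 0.48 CPM in males and 7.18 ± 0.98 CPM in females (log2 fold change -0.50, SE 0.07, edgeR adjusted p = 2.52e-05). Of 19 other cord peptides tested, Cartpt, the CART peptide gene, was called higher, with 11.9 ± 2.31 CPM in males and 7.79 ± 1.09 CPM in females (0.60, SE 0.08, adjusted p = 1.22e-04) and no overlap between the sexes. Galanin (Gal) did not pass, at 5.80 ± 0.90 CPM in males and 4.70 ± 0.65 CPM in females (0.31, SE 0.08, adjusted p = 0.0654). None of 8 enzymes that process precursors, 12 dense core vesicle proteins or 10 peptidases was called.

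Marker lists of dorsal horn cells without the peptides showed no call between the sexes: 9 of 14 excitatory markers and 6 of 11 inhibitory markers had positive log2 fold changes (medians 0.018 and 0.010, against 0.0038 over all tested genes). The summed level of excitatory markers was 537 to 597 CPM in males and 531 to 627 CPM in females. That of astrocyte markers was 6555 to 7201 CPM in males and 6825 to 7662 CPM in females, with 7 of 8 genes lower in males and none called. All 8 meningeal genes were lower in males (560 to 760 CPM summed, against 625 to 830 CPM in females), of which Igf2 was called (-0.80, SE 0.19, edgeR adjusted p = 0.0293; 10 of the 23 fits that leave out 1 cord lose this call). All 7 Schwann cell genes were positive (median 0.14, none called). No gene of these lists was at 0 in all cords, and their part in the differences of the peptides was not tested. In whole tissue, fewer cells of a type and less RNA per cell cannot be told apart.

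Paclitaxel changed none of the 9 transcripts past the threshold. Over all 23 cords edgeR called 0 members where 0.0197% of all genes were called, and DESeq2 and limma voom called 0 members too. At an unadjusted p under 0.05 stood 2583 of all 25372 tested genes and 2 members, Npy and Sst. Npy ranged over 7.84 to 12.01 CPM in paclitaxel cords (median 10.0) and 7.31 to 13.02 CPM in vehicle cords (median 8.64), with overlap. It averaged 10.1 ± 1.23 CPM in paclitaxel cords and 8.97 ± 1.58 CPM in vehicle cords (n = 11 and 12, log2 fold change 0.19, 95% interval 0.033 to 0.35, edgeR adjusted p = 0.399). Sst ranged over 45.3 to 71.3 CPM in paclitaxel cords (median 61.2) and 42.8 to 64.2 CPM in vehicle cords (median 52.3), and averaged 58.7 ± 8.20 CPM in paclitaxel cords and 53.1 ± 6.88 CPM in vehicle cords (0.14, interval 0.0077 to 0.28, adjusted p = 0.463). The members' median log2 fold change was 0.060 against 0.0061 over all genes, and 6 of 9 were positive.

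Within WT cords 0 of 9 members were called (0% of all genes), with log2 fold changes from -0.12 for Tac2 to 0.35 for Cck. There 1 member and 2021 of all 25372 tested genes had an unadjusted p under 0.05. Within KO cords 0 members were called as well (0.0236% of all genes), and 1 member and 2863 genes had an unadjusted p under 0.05. Penk averaged 115 ± 28.1 CPM in KO paclitaxel cords and 97.5 ± 14.3 CPM in KO vehicle cords (0.21, SE 0.08, edgeR adjusted p = 0.340). The difference between the drug responses of the genotypes called 0 members and 0% of all genes, with 2134 genes but no member at an unadjusted p under 0.05. Its widest value was that of Cck, -0.57 (95% interval -1.20 to 0.051).

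The knockout changed none of the 9 transcripts past the threshold. The log2 fold changes of KO against WT ran from -0.14 for Grp to -0.038 for Npy, all 9 negative, where 50.5% of tested genes were negative and 0.0118% were called. edgeR, DESeq2 and limma voom called 0 members. No member and 852 of all 25372 tested genes had an unadjusted p under 0.05. Grp averaged 5.93 ± 1.93 CPM in KO cords and 6.58 ± 1.72 CPM in WT cords (95% interval of the log2 fold change -0.29 to 0.017). Nts averaged 18.5 ± 0.93 CPM in KO cords and 19.4 ± 3.10 CPM in WT cords (-0.078, interval -0.16 to 0.0077). Of the lists without members, all 14 markers of dorsal horn excitatory neurons and 9 of 11 of inhibitory neurons were negative too. So were all 7 Schwann cell markers (median -0.12) and 7 of 8 microglia markers (median -0.039). In contrast, 9 of 10 motor neuron markers and 8 of 8 oligodendrocyte markers were positive, and no gene of these lists was called. With all 24 libraries in the fit, 6 of the 9 members turned positive.

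By treatment, KO against WT called 0 members under paclitaxel (0.00394% of all genes) and 0 under vehicle (0.00788%). Under paclitaxel 1 member, Grp, and 1568 of all 25372 tested genes had an unadjusted p under 0.05. Grp averaged 5.77 ± 2.28 CPM in KO cords and 7.03 ± 1.93 CPM in WT cords (log2 fold change -0.25, SE 0.11, edgeR adjusted p = 0.790). Under vehicle its difference was -0.030 (SE 0.10), and the difference between these values is the interaction of genotype and treatment above (-0.21, adjusted p = 0.706).

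**Figure D3:**
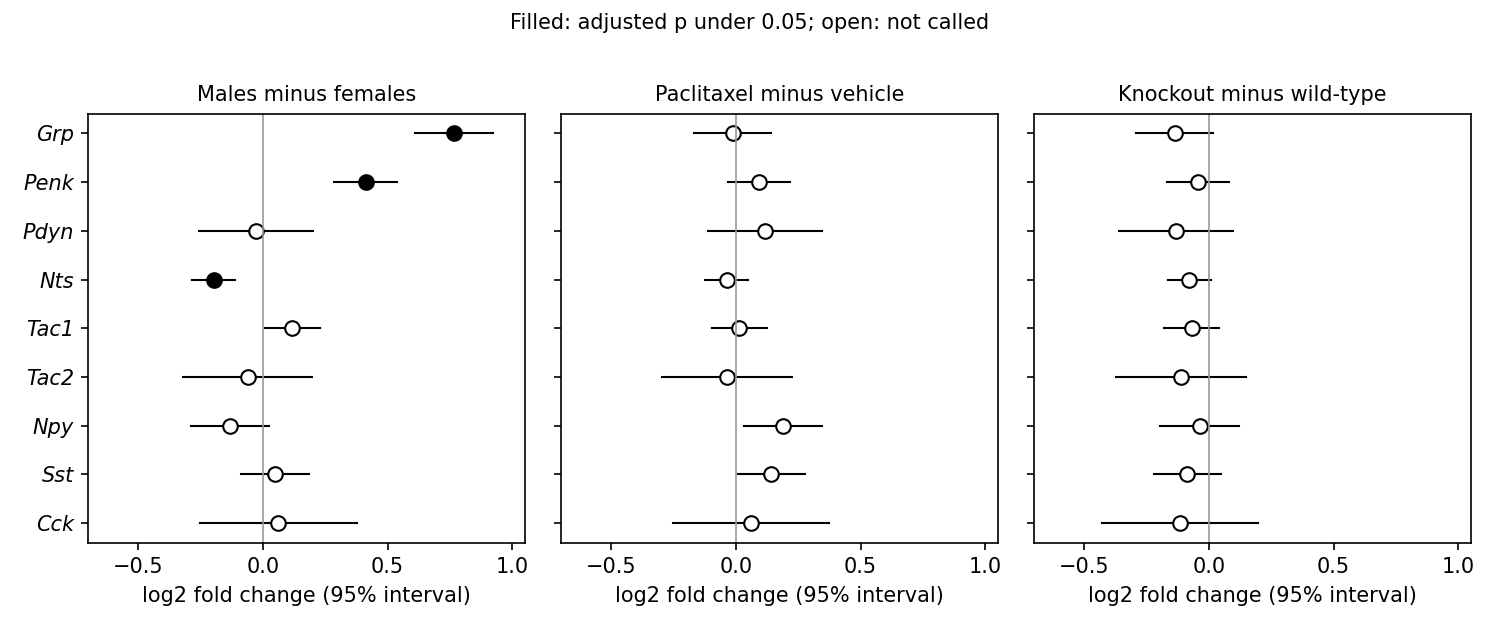
Log2 fold change with 95% interval of each member for males over females, paclitaxel over vehicle and KO over WT, in 23 cords. Filled points passed an edgeR adjusted p of 0.05 and open points did not; Grp, Penk and Nts are filled in the panel of sex and none is filled in the other panels.

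Whether members' drug response differs between the sexes depended on the fit. The interaction of sex and treatment, the drug response in males less that in females, was positive for 8 of 9 members (median 0.36, against -0.0052 over all genes). edgeR called 0 members where 4.96% of all genes were called. At an unadjusted p under 0.05 stood 4 members and 5157 of all 25372 tested genes. The limma voom fit also called 0 members, with 1202 of all genes called, and DESeq2 called Penk and Sst, with 2376 of all genes called. Against 1259 genes in the main fit, edgeR with replicate number as a block called 1891. Among these were 5 members: Penk (adjusted p = 6.55e-04), Sst (0.00239), Tac2 (0.00592), Pdyn (0.0119) and Nts (0.0362). Penk averaged 136 ± 12.9 CPM in male paclitaxel cords, 111 ± 12.9 in male vehicle, 89.3 ± 8.45 in female paclitaxel and 95.8 ± 9.94 in female vehicle (SD, n = 6, 6, 5 and 6). Its interaction was 0.41 (SE 0.12, edgeR adjusted p = 0.0574). Sst averaged 63.6 ± 5.64, 50.4 ± 6.96, 52.9 ± 7.10 and 55.8 ± 6.18 CPM in the same groups (0.40, SE 0.13, adjusted p = 0.0799). Pdyn, the dynorphin gene, averaged 16.8 ± 2.50, 12.8 ± 2.78, 13.9 ± 2.97 and 15.9 ± 2.24 CPM (0.56, SE 0.22, adjusted p = 0.148). Nts ran the other way, at 16.9 ± 1.25, 18.7 ± 1.48, 20.6 ± 3.09 and 19.8 ± 1.29 CPM (-0.23, SE 0.08, adjusted p = 0.0980).

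This interaction coincides with the library numbers: it sets libraries 1 to 12 against libraries 13 to 24, so the interaction and the library numbers cannot be told apart. None of the 11 sensory ganglion, 8 meningeal or 4 hypothalamus and forebrain genes tested was called in this interaction. Genes of several other cell types were called, where 4.96% of all genes were called. Among glia these were Cldn11, Mag and Cnp of oligodendrocytes (3 of 8), Cx3cr1 and Csf1r of microglia (2 of 8) and Aldh1l1 of astrocytes (1 of 8). Leaving out 1 cord lost the call of Cldn11 in 18 fits, Csf1r in 13, Cx3cr1 in 12, Mag in 6, Aldh1l1 in 5 and Cnp in 0. Among neurons these were Slc32a1 (0.31), Gad1 (0.40) and Pax2 (0.41) of inhibitory cells (3 of 11), Reln (0.42) and Tlx3 (1.28) of excitatory cells (2 of 14) and Ache (0.19) of the motor neuron list (1 of 10). The calls of Pax2, Tlx3 and Sstr2 stood in all 23 fits that leave out 1 cord, whereas those of Gad1 were lost in 18, of Reln, Ache, Oprm1 and Acta1 in 12 each, of Pam in 3 and of Slc32a1 in 1. Of the receptors, Sstr2, a somatostatin receptor, was positive (0.65, SE 0.15, edgeR adjusted p = 0.0165) and Oprm1, the mu opioid receptor, negative (-1.052, SE 0.27, adjusted p = 0.0323). Pam, the enzyme that amidates peptides, was positive (0.29, SE 0.07, adjusted p = 0.0220). All 8 skeletal muscle genes were positive (median 2.96), and Acta1, the actin of that tissue, was called (3.31). Their summed level was 3.67 to 41.3 CPM in male paclitaxel, 2.67 to 8.38 in male vehicle, 3.38 to 9.20 in female paclitaxel and 4.02 to 21.8 in female vehicle cords. All 7 Schwann cell genes were positive (median 0.31), none was called, and their sums ran over 462 to 710 CPM, 408 to 675 CPM, 393 to 601 CPM and 422 to 790 CPM in the same order of groups. The part of these cell types in the values of the peptides was not tested. The sex contrast above weighs both ranges of library numbers equally.

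The interaction of sex and genotype called 0 members by edgeR, DESeq2 and limma voom, where edgeR called 0.00394% of all genes. At an unadjusted p under 0.05 stood 3189 of all 25372 tested genes and 1 member. That was Nts, at 0.26 (SE 0.08, edgeR adjusted p = 0.209). Its log2 fold change of KO against WT was 0.051 (SE 0.06) in males and -0.21 (SE 0.06) in females.

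Cords varied more in these transcripts than in most genes. The SD of log2 CPM within groups was 0.34 for Cck, 0.30 for Tac2, 0.26 for Pdyn, 0.21 for Grp, 0.20 for Npy, 0.16 for Sst, 0.15 for Penk, 0.14 for Tac1 and 0.11 for Nts, against a median of 0.084 over the 12401 genes with a mean of at least 5 CPM. Counting error was small beside it: mean counts would give a coefficient of variation of 0.986% for Penk to 4.11% for Grp. The highest cord exceeded the lowest by 1.52 times for Tac1 and by 3.09 times for Grp.

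Levels of some members went together from cord to cord. The share of pairs that pass among other genes is not given here, so the count below is not shown to be particular to the members. Of 36 pairs, 13 had a Pearson r of log2 CPM past the threshold over 23 cords (permutation test with 100000 resamples, two-sided, adjusted over the pairs), all of them positive. Of the 13, 12 also passed on deviations from the 8 group means. That test shuffled the deviations as 23 free values although 8 means had been subtracted. The p-values on deviations, here and below, are therefore too small. Because males and females formed separate clusters of Grp, values are given within each sex. Pdyn and Tac2, which passed in both sexes, had r = 0.78 in males (rho = 0.83, permutation adjusted p = 0.0177) and 0.81 in females (rho = 0.65, permutation adjusted p = 0.0362). In all 23 cords their r was 0.79 (rho = 0.78, permutation adjusted p = 1.80e-04), and 0.79 without the 2 cords farthest from the median of Pdyn. The value was 0.83 in libraries 1 to 12 and 0.74 in libraries 13 to 24.

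Penk and Pdyn, the opioid genes, had r = 0.92 in males (permutation adjusted p = 0.00108) and 0.67 in females (permutation adjusted p = 0.105). On deviations from the 8 group means r was 0.81 (permutation adjusted p = 9.00e-05). Over raw levels of all cords r was 0.51 (permutation adjusted p = 0.0346), and 0.34 (permutation adjusted p = 0.260) without the 2 cords farthest from the median of Penk. It was 0.60 in libraries 1 to 12 and 0.27 in libraries 13 to 24, ranges that each hold both sexes. The r within a sex keeps the differences between its genotypes and treatments, which deviations remove. Grp and Penk, both higher in males, had r = 0.57 in males (permutation adjusted p = 0.120) and 0.63 in females (permutation adjusted p = 0.105), and neither passed. On deviations from the group means, which remove the sex difference, r was 0.80 over 23 cords (permutation adjusted p = 9.00e-05). Grp and Tac2 had r = 0.91 in females (permutation adjusted p = 0.00756) and 0.36 in males, and -0.027 in libraries 1 to 12 and 0.41 in libraries 13 to 24. In all, 9 pairs passed in males and 5 in females, with 1 pair in both. The r of Cck with other members ran from -0.60 to 0.45 within the sexes, and none passed. By rank, Cck and Sst had rho = 0.58 over 23 cords (permutation adjusted p = 0.0214), 0.51 in males and 0.60 in females. The cords share their replicate numbers, and with the means of these numbers also subtracted 0 of 36 pairs passed.

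**Figure D4:**
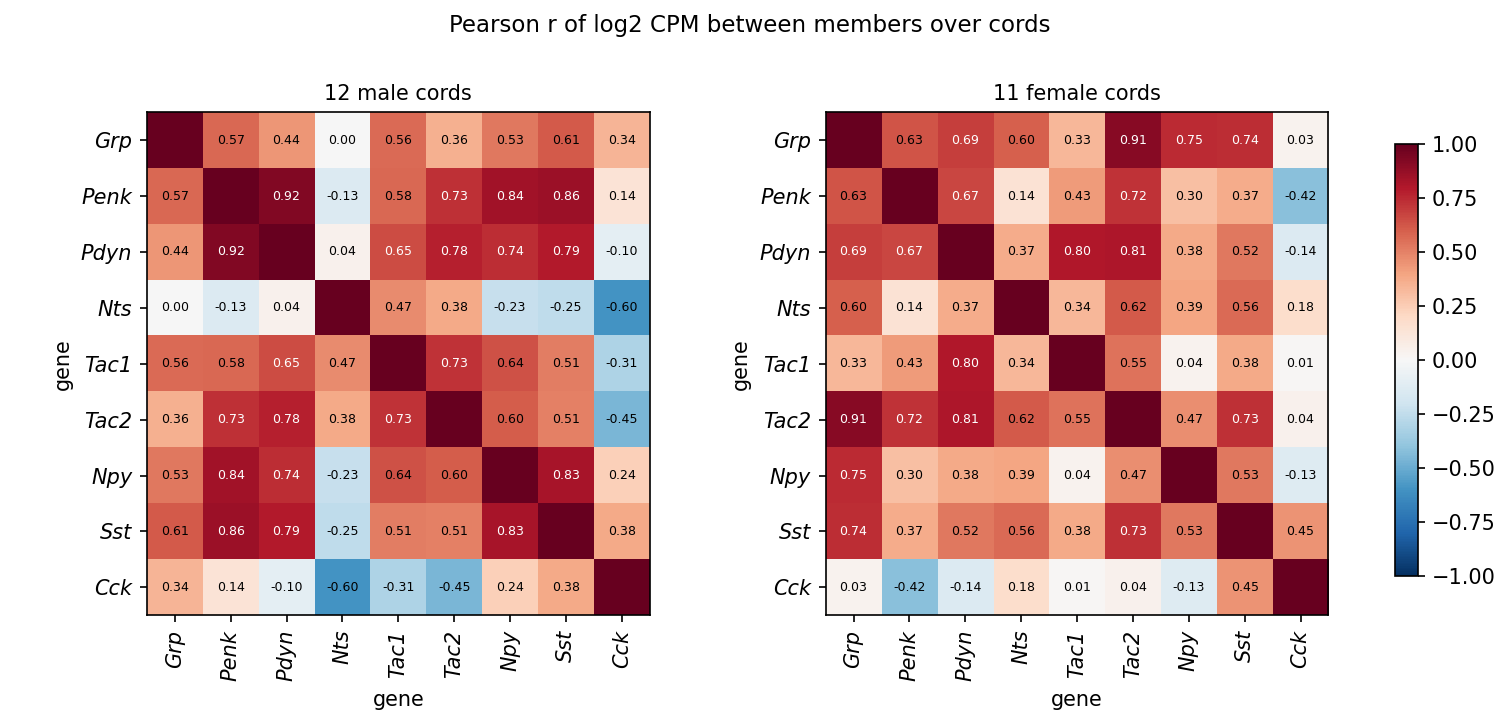
Pearson r of log2 CPM between each pair of members over 12 male and over 11 female cords, as colour and number. Penk with Pdyn (0.92) in males and Grp with Tac2 (0.91) in females are highest, and the values of Cck run from -0.60 to 0.45.

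For each member, the 3 genes with the highest Pearson r over 23 cords were sought among 12401 genes with a mean of at least 5 CPM, as a description. Those of Grp were Uty (0.86), Eif2s3y (0.84) and Ddx3y (0.83), genes of the Y chromosome whose r within males was -0.19, 0.040 and -0.30. Penk followed Sord (0.86), Grp (0.83) and Ngb (0.81). Pdyn followed Dclk3 (0.89), Camk2a (0.88) and Igsf3 (0.87). Nts followed Bmp3 (0.85), Ubxn2b (0.84) and Fam208a (0.81). Tac1 followed Fxyd6 (0.74), Il16 and AW551984 (0.71 each). Tac2 followed Ebf2 (0.87), Hpcal4 (0.87) and Tunar (0.86). Npy followed Tpbg (0.78), Pnoc (0.72), the nociceptin gene, and Fam124a (0.66). Sst followed Itm2c (0.86), Bcl11b and Gpr146 (0.83 each). Cck followed Trir (0.97), Ccdc85b (0.97) and Gm1673 (0.95). On deviations from the group means, 3 of these 27 genes were again among the 3 highest of their member.

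In Cck 3 cords stood apart. It was at 27.8 CPM in KO female vehicle replicate 2, 27.8 CPM in WT male paclitaxel replicate 2 and 20.8 CPM in WT male vehicle replicate 2, against 10.9 to 17.8 CPM (median 13.7) in the other 20. Ccdc85b stood at 95.3, 114 and 76.3 CPM in these cords and at 29.4 to 58.4 CPM in the others. Trir and Gm1673 were likewise highest there. The 3 cords come from 3 groups and both sexes, and all are replicate 2. The lowest Pdyn, Tac2 and Penk of all cords lay among them: Pdyn ranged over 9.96 to 13.7 CPM in the 3 cords and 10.8 to 19.96 CPM in the others, and Tac2 over 15.6 to 21.6 CPM in the 3 and 15.7 to 34.4 CPM in the others. Penk ranged over 79.003 to 122 CPM in the 3 cords and 81.1 to 157 CPM in the others, and Sst over 52.6 to 62.7 CPM in the 3 and 42.8 to 71.3 CPM in the others. Without these cords, a choice made after seeing the data, Grp, Penk and Nts were still called between the sexes (log2 fold changes 0.74, 0.42 and -0.18), and Penk was also called in the interaction of sex and treatment.

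In the ganglion-like library Tac1 lay above every cord and the other 8 members below every cord. Of 12 dense core vesicle proteins, 5 lay above and 7 below every cord too, so lying outside the cords was not particular to the members. The share of all genes outside the cords is not given here. Tac1, whose substance P is made by peptidergic sensory neurons, stood at 312 CPM (29556 counts, without TMM factors as are the other values here), against 21.8 to 33.7 CPM in the 23 cords, or 11.97 times their median of 26.05 CPM. Grp stood at 0.148 CPM (14 counts, exact 95% Poisson interval 0.0808 to 0.248 CPM), against 2.93 to 9.08 CPM in cords, and was 2.27% of their median. Tac2 was 3.26%, Cck 4.33%, Penk 8.46%, Npy 8.88%, Pdyn 9.39% and Sst 19.2% of the median of cords. Nts was nearest to the cords, at 12.5 CPM against 15.7 to 26.03 CPM, or 65.7% of their median. 

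Receptors and other peptides lay on both sides of the cords in the same library, as did other lists. Of 20 other peptides, 6 lay above and 9 below every cord. Calca, the CGRP gene, stood at 1546 CPM against 24.5 to 62.7 CPM in cords, Nmb, the neuromedin B gene, at 79.4 against 1.23 to 2.07 CPM, and Adcyap1, the PACAP gene, at 123 against 24.3 to 34.5 CPM. Of the 20 receptors, 7 lay above every cord, among them Cckar (22.8 against 0.903 to 1.83 CPM), Npy2r (32.5 against 4.52 to 8.85 CPM) and Oprm1 (9.64 against 1.01 to 4.44 CPM). A further 11 lay below every cord, among them Tacr1, the substance P receptor (1.18 against 19.1 to 24.9 CPM), and Tacr3 (0.929 against 13.1 to 19.97 CPM). Astrocyte, oligodendrocyte and microglia markers lay below every cord in 8 of 8 genes each, and muscle genes above every cord in 8 of 8. Of 10 motor neuron markers 3 lay above and 7 below every cord, and of 11 inhibitory neuron markers 1 above and 10 below. Lying outside the cords was thus not particular to the receptors, and the share of all genes is not given here. The library has no replicate, the intervals cover counting error only, and no test was made.

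**Figure D5:**
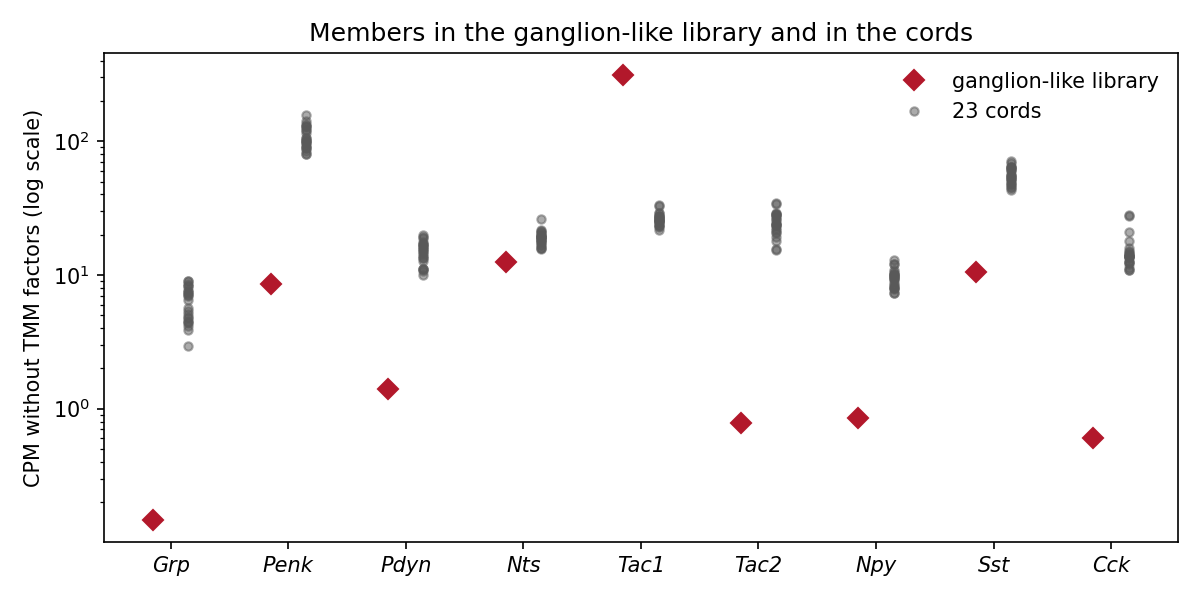
Level (CPM without TMM factors, log axis) of each member in the ganglion-like library (diamond, 1 library) and in each of 23 cords (grey circles). Tac1 is the member that stands above the cords (312 CPM), and the other 8 stand below them.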

How the data were processed

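RNA-seq of L4-L6 spinal cord was deposited as raw counts per gene. Per the submitters' processing notes, reads were aligned with STAR and counted with featureCounts 1.6.2. Per the file headers, the counts were summed by gene name over exons of Ensembl GRCm38 release 96, with no strand option. Groups follow the sample titles. Gene lengths are the deposited exon lengths, used for levels per kilobase.

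From the counts, edgeR 4.0.16 (R 4.3.3) kept 25372 genes with filterByExpr over the 8 groups, scaled with TMM and fitted 1 mean per group by robust quasi-likelihood. Genes with a Benjamini-Hochberg adjusted p under 0.05 over all tested genes were called. log2 CPM used a prior count of 1. The fit held 23 cords. Library depth was 88812295 to 112158154 counts, and intervals of single libraries cover counting error only. The labels number the replicates without naming animals, so p-values measure only the spread between these samples. No replicate pair agreed within sampling noise (lowest chi-square per degree of freedom 8.98). Alternatives were all 24 libraries, RLE factors, DESeq2 1.42.0, limma voom 3.58.1, no filter, a mean of at least 1 CPM, a replicate block and each cord left out. Named are all 9 members in each comparison, 3 alike genes per member, and called or near-called genes of the other lists. The members and lists were chosen with earlier results of these data known.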

Additional observations from a re-analysis of the deposited data

Results flagged for a closer look

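Of 36 combinations of member and group with 5 or 6 cords, 3 held a cord far from the others by Dixon's ratio, and chance gives about 1 in 20. Sst in WT paclitaxel was lowest in female replicate 2 (52.6 CPM, others 61.2 to 63.5 CPM). Cck was highest in female replicate 2 of KO vehicle (27.8 CPM, others 12.1 to 14.3 CPM) and in male replicate 2 of WT vehicle (20.8 CPM, others 10.97 to 13.8 CPM).

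With the ganglion-like library in WT paclitaxel, 4 of 9 members were set apart in it: Pdyn (1.41 CPM, others 13.5 to 18.96 CPM), Tac1 (312 CPM, others 23.7 to 29.2 CPM), Npy (0.844 CPM, others 8.61 to 12.1 CPM) and Sst (10.6 CPM, others 53.6 to 64.3 CPM). These values are CPM without TMM factors. Tac1 in that library, which no comparison used, lay above all 23 cords.

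The drug response in males less that in females was called by edgeR for 15 genes of the lists of receptors, processing enzymes, vesicle proteins, peptidases, other peptides and dorsal horn neurons, where 4.96% of all genes were called. Leaving out 1 of the 23 cords lost the call in 18 fits for Gad1 and Ece1, 16 for Nppc, 12 for Reln and Oprm1, 9 for Edn3 and Lnpep, 4 for Syt4, 3 for Prep and Pam, 1 for Chgb and Slc32a1 and 0 for Tlx3, Pax2 and Sstr2, and all 24 libraries together lost all 15. On the log2 scale it was 0.44 for Chgb, -0.22 for Syt4, 1.28 for Tlx3, 0.42 for Reln, 0.41 for Pax2, 0.31 for Slc32a1, 0.40 for Gad1, 0.42 for Edn3, 0.44 for Nppc, 0.29 for Prep, -0.23 for Lnpep, 0.34 for Ece1, 0.29 for Pam, 0.65 for Sstr2 and -1.052 for Oprm1. This difference and the library number ranges cannot be told apart.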

How the results depend on the processing

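Of the 87 member values that were not called, 2709 refits gave 2527 with the same sign and side of the threshold, 35 that passed it and 147 with the other sign, over 47 values. The 3 called values gave 93 of 99 refits with the call and sign, 6 that lost the call and 0 with the other sign; leaving out 1 cord gave log2 fold changes between the sexes of 0.72 to 0.81 for Grp, 0.38 to 0.43 for Penk and -0.24 to -0.16 for Nts, with 2 to 3 members called. All 24 libraries called 0 members between the sexes, and vehicle cords alone 1 (Grp, with the share of all genes not given here).
With no filter on low counts the calls were 1 for paclitaxel in all cords (Sst), 1 in WT (Cck), 2 in KO (Penk, Cck), 1 for KO under paclitaxel (Cck), 2 for genotype by treatment (Penk, Cck), 5 for sex by treatment (Penk, Pdyn, Tac2, Sst, Cck) and 2 for sex by genotype (Tac2, Cck); the cause was not tested. For sex by treatment, DESeq2 called 2 (Penk, Sst), a mean of at least 1 CPM 2 (Penk, Sst), cords without the 3 of highest Cck 1 (Penk), and leaving out 1 cord 0 to 3.
With the replicate number as a block, paclitaxel in KO called 1 member (Penk) and sex by treatment 5 (Penk, Pdyn, Nts, Tac2, Sst), and 0 of 36 member pairs passed; it changed no other count of members. Same-numbered cords had r of -0.06 to 0.08 in deviations over all genes (0 of 77 pairs over 0.1). Over genes of at least 5 CPM, a set chosen after seeing the data, 29 of 77 same-numbered and 37 of 154 other pairs were over 0.1 (medians 0.031 and -0.014). Of 23 cords, 10 and 11 correlated best with their own number in these sets, so not every pair met the criterion for pairing, and the labels do not say what the numbers share.
The count of member pairs, 13, was 24 on deviations from group means, 32 with all 24 libraries, 9 within males, 5 within females, 6 without the 2 farthest cords, and 5 to 16 when 1 cord was left out (5 without KO male paclitaxel replicate 1, 6 without KO female paclitaxel replicate 2).
Over all genes, sex called 233 (28 with all 24 libraries, 583 by DESeq2, 749 unfiltered, 65 to 324 with 1 cord left out) and sex by treatment 1259 (0, 2376, 2181 and 248 to 2419; 1891 with the block). Paclitaxel called 5 (158 by DESeq2, 338 unfiltered) in all cords, 0 (4 and 254) in WT and 6 (126 and 470) in KO. The knockout called 3 (5 and 99), 1 (3 and 215) under paclitaxel and 2 (4 and 111) under vehicle, genotype by treatment 0 (0 and 366) and sex by genotype 1 (203 and 813).
With all 24 libraries the sign turned for paclitaxel in all cords in Penk (-0.038), Pdyn (-0.016), Cck (-0.082), and for paclitaxel in WT in Grp (-0.19), Pdyn (-0.24), Tac1 (1.08), Npy (-0.022), Sst (-0.087), and for KO in all cords in Grp (0.00297), Penk (0.084), Tac2 (0.0296), Npy (0.095), Sst (0.026), Cck (0.025), and for KO under paclitaxel in Grp (0.037), Pdyn (0.22), Nts (0.034), Tac1 (-1.14), Tac2 (0.26), Npy (0.17), Sst (0.14), and for genotype by treatment in Grp (0.069), Nts (0.11), Tac1 (-0.999), Npy (0.15), Sst (0.23), and for sex in Pdyn (0.0996), Tac1 (-0.46), Tac2 (0.079), and for sex by treatment in Tac1 (-1.09), Tlx3 (-0.034), Prep (-0.0098), and for sex by genotype in Grp (-0.16), Pdyn (-0.037), Npy (-0.24). Without the 3 cords of highest Cck the sign turned for paclitaxel in WT in Pdyn (-0.0201), and for KO under vehicle in Grp (0.015), and for KO under paclitaxel in Tac1 (-0.032), and for genotype by treatment in Nts (0.037), Sst (0.0015), and for sex in Pdyn (0.017), Tac2 (0.00101), and for sex by genotype in Npy (-0.068), Cck (0.023). With limma voom the sign turned for KO under paclitaxel in Tac1 (-0.0024). With RLE size factors the sign turned for genotype by treatment in Nts (0.0016), Sst (0.0022). With DESeq2 the sign turned for genotype by treatment in Nts (0.0017), Sst (0.0022). With replicate block the sign turned for genotype by treatment in Sst (0.0101). In vehicle cords alone the sign turned for sex in Sst (-0.16), Cck (-0.12). In paclitaxel cords alone the sign turned for sex in Pdyn (0.25), Tac2 (0.14).
Leaving out 1 cord turned the sign in at least 1 refit, with these ranges of log2 values: for paclitaxel in all cords in Grp (-0.054 to 0.029), Tac1 (-0.023 to 0.045), Tac2 (-0.091 to 0.015), Cck (-0.025 to 0.16), for paclitaxel in WT in Pdyn (-0.074 to 0.13), Penk (-0.063 to 0.00996), Tac1 (-0.10 to 0.0033), Nts (-0.13 to 0.035), for paclitaxel in KO in Tac2 (-0.041 to 0.13), for KO in all cords in Npy (-0.0898 to 0.0022), for KO under vehicle in Npy (-0.086 to 0.098), Grp (-0.11 to 0.032), Cck (-0.0299 to 0.31), for KO under paclitaxel in Tac1 (-0.061 to 0.037), Pdyn (-0.17 to 0.041), Tac2 (-0.13 to 0.082), Nts (-0.16 to 0.0052), for genotype by treatment in Nts (-0.0799 to 0.081), Sst (-0.0697 to 0.0705), for sex in Cck (-0.023 to 0.16), Pdyn (-0.085 to 0.034), for sex by treatment in Tac1 (-0.0048 to 0.12), for sex by genotype in Npy (-0.049 to 0.13), Penk (-0.062 to 0.038), Sst (-0.086 to 0.054). The cause of these turns was not tested, and fits with fewer cords or with the ganglion-like library differ from the others by those libraries. Vehicle and paclitaxel cords alone, the cords of highest Cck, the correlations within each sex and the scaling for alike genes were chosen after seeing the data.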

Other observations

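Levels of most members moved with the replicate number of the labels, a pattern noticed after the fit with replicate numbers as a block and given as a description with no test. Replicate number held 87.8% of the variance within groups of log2 CPM for Tac2, the highest of 12401 genes with a mean of at least 5 CPM, and 84.0% for Penk, against a median of 12.4% over those genes. The share was 65.3% for Sst, 61.4% for Nts, 59.8% for Pdyn, 59.3% for Grp, 44.4% for Npy, 32.7% for Tac1 and 23.5% for Cck. For both Tac2 and Penk, replicate 1 lay above its group mean in 8 of 8 groups and replicate 2 in 0 of 8. The labels do not say what the numbers stand for.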
